A study of Homo sapiens with 4 samples.

Results

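Cadherin and protocadherin messages were followed in RNA released by HEK293T cells with and without a Cas13d-carrying nanocage. They were taken as the protein-coding genes whose symbol is CDH with a number or begins with PCDH, which holds for 88 of the 61543 genes counted. Of these, 35 lie outside the PCDHA, PCDHB and PCDHG clusters and are called unclustered, 23 CDH genes and 12 PCDH genes. The other 53 lie in 3 clusters on chromosome 5, with 15 genes in PCDHA, 16 in PCDHB and 22 in PCDHG. The clusters were handled apart, because the members of PCDHA, and likewise those of PCDHG, end in the same exons and share reads.

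Cadherins are calcium-dependent adhesion proteins of the cell surface. Classical cadherins bind cadherins of the neighbouring cell, and their tails hold catenins, which connect them to actin. Protocadherins are related proteins known best from neurons. In PCDHA and PCDHG, a variable first exon is joined to a constant end, whereas PCDHB genes have no exon common to all members. Neighbouring cells show different combinations of clustered protocadherins. The unclustered delta protocadherins act in cell sorting and bind actin regulators through their tails. N-cadherin, encoded by CDH2, is a known cadherin of HEK293T, a human embryonic kidney line.

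Supernatant from HEK293T cultures was sequenced by POND-seq, in which EPN24 proteins assemble into nanocages that leave the cell with RNA inside. The first group, EPN24-Cas13d, carried EPN24 fused to Cas13d, a CRISPR protein that binds RNA, and the second, EPN24, carried EPN24 without it, and each group has 2 libraries. At issue is which RNAs the fusion carries out of the cell. The labels name no guide RNA, and they do not say whether the 2 libraries of a group came from separate cultures, so p-values may reflect technical spread only.

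Depth came to 5097332 and 4863449 counts on genes in the EPN24-Cas13d libraries, against 1830860 and 1903492 in the EPN24 libraries. Relative to ERCC, a synthetic RNA added in equal volume before extraction, gene counts were 56.9 and 59.3 times as many in EPN24-Cas13d, against 4.11 and 3.79 times in EPN24. Values below are CPM, counts set to a common library total, with TMM scaling, which sets the trimmed mean difference between libraries to 0 without the ERCC rows. On this scale 3 counts, the limit that a count of 0 allows, equal 0.721 and 0.755 CPM in EPN24-Cas13d and 1.34 and 1.42 CPM in EPN24. Such limits and all intervals below cover counting error only: no molecular identifiers mark PCR copies, and most whole counts are even, so single counts may not be independent. Among ERCC counts above 0, 94.4% to 98.4% were even, and whether both reads of a pair were counted was not tested. Where 2 counts come from 1 piece of RNA, the intervals below are too narrow and the at-least fold differences too large. Markers of HEK293T summed to 3839 and 3779 CPM in EPN24-Cas13d, against 488 and 519 CPM in EPN24, with 7 of 9 markers higher and 1 lower. Sums over markers of blood, liver, endothelium, fibroblasts, differentiated epithelium and neurons ranged from 0.962 to 26.1 CPM in EPN24-Cas13d and from 11.6 to 52.5 CPM in EPN24, and edgeR called 16 of these 26 markers lower and none higher, with none higher at an unadjusted p under 0.05 or by DESeq2. With ERCC scaling 4 of them were higher and none lower. In EPN24 21 of the 26 lay within 3 times the density of olfactory receptor genes described below, and 6 had no count in either EPN24-Cas13d library. Their part in the results for cadherins was not tested, and CDH2, CDH5 and CDH1 are themselves in these marker lists. In such bulk RNA of a culture supernatant, fewer cells, less of a message per cell and less of it released cannot be told apart.

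Most cadherin messages were lower in EPN24-Cas13d, and 3 stood out as higher: CDH2, CDH24 and PCDH1. Of the 35 unclustered members, 28 had enough counts to be tested, and the quasi-likelihood test of edgeR, with p-values adjusted by Benjamini-Hochberg over all tested genes, called 3 higher, 21 lower and 4 neither way. Over all 20476 tested genes, 32.6% were higher and 48.2% lower. The median log2 fold change was -2.73 for the 28 members, the same with genes at 0 set to their bound, and -0.96 for all tested genes. Scaling to ERCC instead moved these medians to 0.57 and 2.38. With ERCC scaling 9 members were higher and 4 lower, against 58.4% higher and 2.33% lower among all tested genes. Without a test, 5 of the 35 had both EPN24-Cas13d values above both EPN24 values and 28 had both below, against 36.8% and 54.3% of the tested genes. The 7 members with too few counts were CDH7, CDH9, CDH13, CDH19, CDH20, PCDH8 and PCDH20. The filter asks for a least CPM, which fewer counts reach in the shallower EPN24 libraries, so it favours genes higher there. Of the 21 lower members, 4 had no count in EPN24-Cas13d, while PCDH8, with 6 and 4 counts in each group, was not tested. Without the filter 5 of 35 were higher and 17 lower, beside 7326 higher and 11046 lower of all 49197 genes tested that way.

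**Figure D1:**
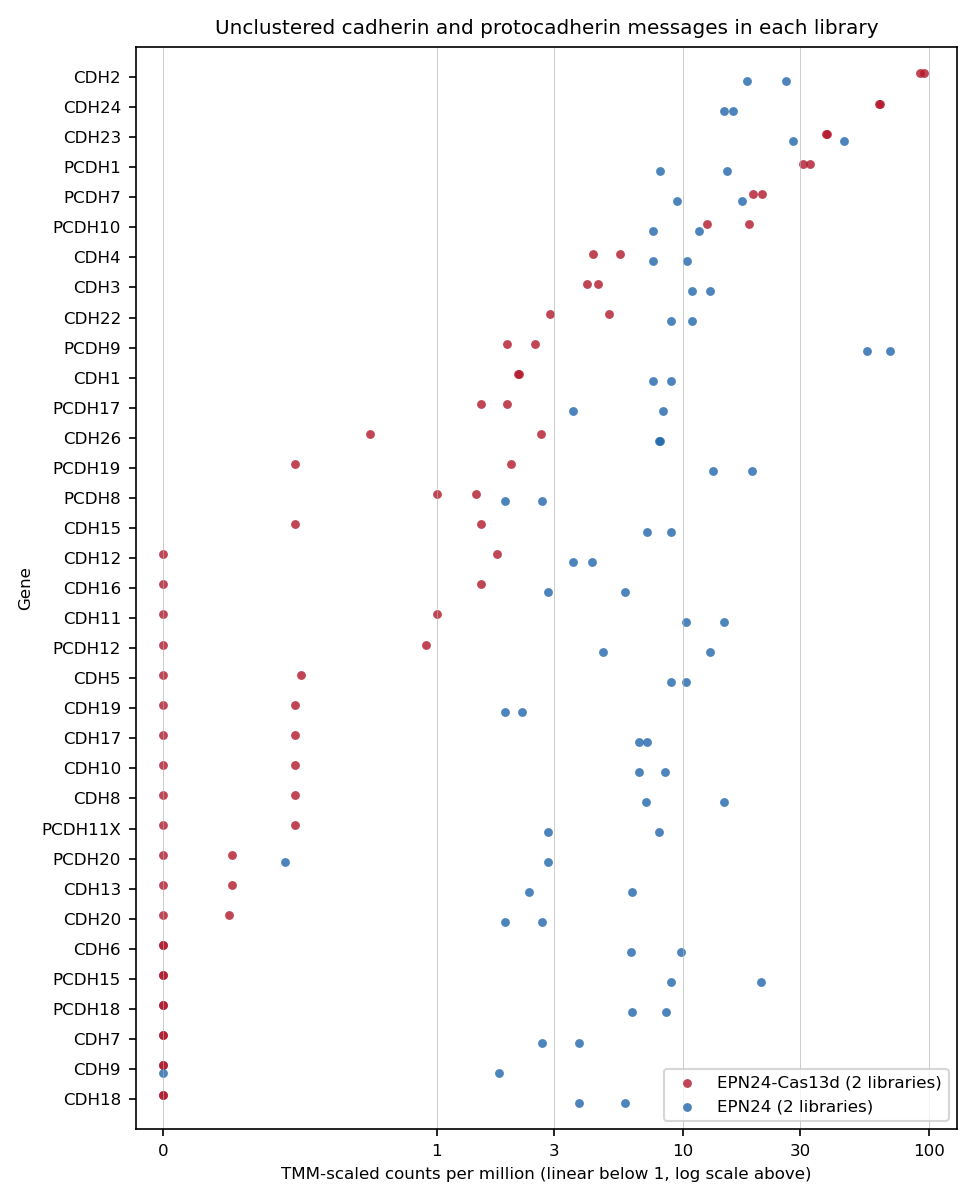
TMM-scaled CPM of the 35 unclustered members, with 1 point per library (red EPN24-Cas13d, blue EPN24). The scale is linear below 1 and logarithmic above. CDH2 at 95.1 and 92.2 CPM leads EPN24-Cas13d, PCDH9 at 56.0 and 69.6 CPM leads EPN24, and CDH23 overlaps between the groups.

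Among the 5 type I classical cadherins, 1 rose, 3 fell and 1 was not called with TMM scaling. With ERCC scaling 3 were higher, 0 lower and 2 not called. CDH2, N-cadherin, measured 95.1 and 92.2 CPM in EPN24-Cas13d, against 18.3 and 26.3 CPM in EPN24. Both EPN24-Cas13d libraries lay far above both EPN24 libraries. Its log2 fold change was 2.07 (approximate SE 0.21, edgeR adjusted p = 9.0e-07), and 5.44 with ERCC scaling. No member had a larger log2 fold change. CDH2 kept this call in each of the 14 alternative fits. In these fits the log2 fold change of CDH2 was smallest with a stricter filter, at 1.21, and largest with ERCC scaling. It was 1.62 with the olfactory receptor density subtracted and 1.68 with counts halved. The median over all tested genes was 0.015 with the stricter filter. An antisense gene, ENSG00000227279, overlaps 3.58% of the exon length of CDH2 and had 29.5 counts over the 4 libraries.

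CDH3, P-cadherin, was found at 4.09 and 4.53 CPM in EPN24-Cas13d and 12.9 and 10.9 CPM in EPN24. CDH1, E-cadherin of epithelia, was found at 2.16 and 2.14 CPM in EPN24-Cas13d and 7.58 and 8.99 CPM in EPN24. CDH15, M-cadherin of muscle, was found at 0.481 and 1.51 CPM in EPN24-Cas13d and 7.14 and 8.99 CPM in EPN24. The groups did not overlap for any of these genes. Their log2 fold changes were -1.46 (edgeR adjusted p = 0.011) for CDH3, -1.97 (edgeR adjusted p = 0.0099) for CDH1 and -2.98 (edgeR adjusted p = 0.0027) for CDH15. With ERCC scaling all 3 differences changed sign, to 1.88 for CDH3, where the gene was called higher, and to 1.37 for CDH1 and 0.35 for CDH15, which were not called. CDH15 was at -2.32 without EPN24-Cas13d replicate 1 and -3.89 without EPN24-Cas13d replicate 2. The call of CDH3 was lost without EPN24-Cas13d replicate 1 (edgeR adjusted p = 0.076) or without EPN24-Cas13d replicate 2 (edgeR adjusted p = 0.051), and 8.40% of its exon length overlaps ENSG00000260577 on the opposite strand, which had 11 counts over the 4 libraries. CDH4, R-cadherin of retina and brain, had 4.33 and 5.54 CPM in EPN24-Cas13d and 7.58 and 10.4 CPM in EPN24. Its log2 fold change of -0.86 was not called (edgeR adjusted p = 0.13), and with ERCC scaling CDH4 was called higher at 2.50. CDH4 was called lower without EPN24 replicate 1 (-1.21, edgeR adjusted p = 0.049), with counts halved (-1.21, edgeR adjusted p = 0.029) and with a GC trend removed, that is with the smoothed log2 fold change of all genes along transcript GC content taken off (-2.69, edgeR adjusted p = 0.00044).

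The 13 type II classical cadherins, which differ from type I in the pocket by which they bind, went both ways. With TMM scaling CDH24 rose, 8 fell and 4 had too few counts, beside 32.6% higher and 48.2% lower among all tested genes. With ERCC scaling 2 were higher, 1 lower and 6 not called. CDH24, a broadly expressed type II cadherin that binds catenins, had 63.2 and 62.7 CPM in EPN24-Cas13d, against 16.1 and 14.7 CPM in EPN24. Its replicates lay close together and the groups far apart. The log2 fold change of CDH24 was 2.03 (approximate SE 0.23, edgeR adjusted p = 2.3e-06), and 5.39 with ERCC scaling. With a GC trend removed CDH24 was called lower at -0.57 (edgeR adjusted p = 0.049). It was still called higher with a stricter filter, at 1.17, and with the olfactory receptor density subtracted, at 1.35.

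CDH11, osteoblast cadherin of mesenchyme, had 0 and 1.01 CPM in EPN24-Cas13d, against 10.3 and 14.7 CPM in EPN24. CDH8, a cadherin of brain circuits, had 0.481 and 0 CPM in EPN24-Cas13d, against 14.7 and 7.10 CPM in EPN24. CDH5, the VE-cadherin of endothelium, had 0 and 0.503 CPM in EPN24-Cas13d, against 10.3 and 8.99 CPM in EPN24. In all 3 genes the groups were far apart, and every EPN24-Cas13d value lay at or near the limit of 3 counts. CDH11 fell by 4.55 on the log2 scale (edgeR adjusted p = 0.00025), and by 3.51 without EPN24-Cas13d replicate 1. Without EPN24-Cas13d replicate 2 no count of CDH11 remained in that group. For CDH8 the 2 counts in EPN24-Cas13d gave a log2 ratio of -5.49 (exact 95% counting interval -8.57 to -3.55), and for CDH5 2 counts gave -5.29 (-8.39 to -3.35). With ERCC scaling none of the 3 was called.

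CDH6, K-cadherin of the developing kidney, had no count in either EPN24-Cas13d library, against 9.81 and 6.15 CPM in EPN24. Set against a floor of 3 counts over both EPN24-Cas13d libraries, it was at least 21.8-fold lower with TMM scaling (edgeR adjusted p = 0.00019). CDH18, a cadherin of the brain, was also at 0 in both EPN24-Cas13d libraries, against 5.80 and 3.79 CPM in EPN24, which makes it at least 13.1-fold lower (edgeR adjusted p = 0.00037). On the ERCC scale these bounds shrank to at least 2.11-fold lower for CDH6 and at least 1.27-fold lower for CDH18. CDH10 had a log2 ratio of -4.95 from 2 counts in EPN24-Cas13d (exact 95% counting interval -8.05 to -2.98). CDH12 measured 0 and 1.76 CPM in EPN24-Cas13d and 3.57 and 4.26 CPM in EPN24, with a log2 fold change of -2.13 (edgeR adjusted p = 0.049) that turned to 1.18 with ERCC scaling. CDH22 measured 2.88 and 5.03 CPM in EPN24-Cas13d and 8.92 and 10.9 CPM in EPN24, with a log2 fold change of -1.32 (edgeR adjusted p = 0.035). With ERCC scaling CDH22 was called higher at 2.04. Without EPN24-Cas13d replicate 1 the call of CDH22 was lost (-0.90, edgeR adjusted p = 0.24), as it was without EPN24 replicate 2 (edgeR adjusted p = 0.080). Among the type II genes not tested, CDH7 and CDH9 were at 0 in both EPN24-Cas13d libraries, and CDH19 and CDH20 had 2 counts and 1 count there.

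Outside the classical types, CDH23 kept about equal CPM in both groups. CDH23 builds, with PCDH15, the tip links of inner ear hair cells. It measured 38.5 and 38.0 CPM in EPN24-Cas13d, against 45.0 and 27.9 CPM in EPN24, and the groups overlapped. The log2 fold change was 0.06 (approximate SE 0.25, edgeR adjusted p = 0.82) with TMM scaling and 3.40, called higher, with ERCC scaling. CDH23 was called lower with a stricter filter (-0.80, edgeR adjusted p = 0.013) and with a GC trend removed (-1.80). Of its exon length, 18.9% overlaps C10orf105 on the opposite strand, and since the strand setting of the counting is not given, reads of the 2 genes cannot be told apart. CDH16, the cadherin of kidney tubules, had 0 and 1.51 CPM in EPN24-Cas13d, against 5.80 and 2.84 CPM in EPN24. CDH26, an epithelial cadherin, had 2.64 and 0.755 CPM in EPN24-Cas13d, against 8.03 and 8.05 CPM in EPN24. CDH17, the cadherin of intestinal epithelium, had 2 counts in EPN24-Cas13d and a log2 ratio of -4.81 (exact 95% counting interval -7.92 to -2.83). These 3 genes were called lower, and CDH16 and CDH26 changed sign with ERCC scaling, to 0.79 and 1.11. CDH13, the lipid-anchored T-cadherin, had 1 count in EPN24-Cas13d and was not tested.

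Among the 4 delta-1 protocadherins, PCDH1 rose, PCDH9 and PCDH11X fell, and PCDH7 was not called with TMM scaling. With ERCC scaling 2 were higher, 1 lower and 1 not called. PCDH1, a protocadherin of airway epithelium, measured 30.8 and 32.7 CPM in EPN24-Cas13d, against 15.2 and 8.05 CPM in EPN24. The groups did not overlap, and the EPN24 replicates differed more than the others. PCDH1 had a log2 fold change of 1.44 (approximate SE 0.32, edgeR adjusted p = 0.0010), and 4.78 with ERCC scaling. The call of PCDH1 was lost with a GC trend removed (-0.58, edgeR adjusted p = 0.13), a stricter filter (0.58, edgeR adjusted p = 0.12) or the olfactory receptor density subtracted (1.18, edgeR adjusted p = 0.063). PCDH7 measured 19.2 and 20.9 CPM in EPN24-Cas13d, against 17.4 and 9.47 CPM in EPN24, a log2 fold change of 0.57 (edgeR adjusted p = 0.14). It was called higher with ERCC scaling (3.91), without EPN24 replicate 1 (0.94, edgeR adjusted p = 0.029), with no filter on low counts (0.93, edgeR adjusted p = 0.023) and with a GC trend removed (1.88). An antisense gene, ENSG00000286596, overlaps 12.4% of the exon length of PCDH7 and had 83.5 counts over the 4 libraries.

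PCDH9, a protocadherin of the brain, had the smallest p of the lower members. It measured 1.92 and 2.52 CPM in EPN24-Cas13d, against 56.0 and 69.6 CPM in EPN24. No EPN24-Cas13d value came near the EPN24 range. The log2 fold change was -4.80 (approximate SE 0.33, edgeR adjusted p = 6.9e-09). PCDH9 was also lower with ERCC scaling, at -1.45 (edgeR adjusted p = 0.0072), and with a GC trend removed, at -2.11 (edgeR adjusted p = 0.00013). Its deposited exon length of 30944 bp is the greatest of all 88 members. PCDH11X, which has a near-identical copy elsewhere in the genome, had a log2 ratio of -4.49 from 2 counts in EPN24-Cas13d (exact 95% counting interval -7.61 to -2.48), and its value is uncertain for that reason.

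Several of the delta-2 protocadherins bind the WAVE actin regulator through their tails, and 3 of the 5 fell with TMM scaling. With ERCC scaling 1 was higher, 1 lower and 2 not called. PCDH19, known for its role in neurons and in epilepsy, measured 0.481 and 2.01 CPM in EPN24-Cas13d, against 19.2 and 13.3 CPM in EPN24. The groups were far apart. PCDH19 had a log2 fold change of -3.68 (approximate SE 0.62, edgeR adjusted p = 0.00012), which was -4.89 without EPN24-Cas13d replicate 2 and -2.92 without EPN24-Cas13d replicate 1. With ERCC scaling its difference was -0.36 and was not called. PCDH18 had no count in either EPN24-Cas13d library, against 6.24 and 8.52 CPM in EPN24, and was at least 19.9-fold lower (edgeR adjusted p = 0.00020), or at least 1.93-fold lower on the ERCC scale. PCDH17 measured 1.92 and 1.51 CPM in EPN24-Cas13d and 3.57 and 8.28 CPM in EPN24. Its log2 fold change was -1.78 (edgeR adjusted p = 0.039), and the sign turned with ERCC scaling to 1.57. PCDH10 measured 12.5 and 18.6 CPM in EPN24-Cas13d, against 11.6 and 7.57 CPM in EPN24. Its groups did not overlap, and its log2 fold change of 0.69 was not called (edgeR adjusted p = 0.12). PCDH10 was called higher with ERCC scaling (4.03), with a GC trend removed (1.92) and with no filter on low counts (1.05, edgeR adjusted p = 0.027). PCDH8 had 6 and 4 counts in EPN24-Cas13d and the same 6 and 4 counts in EPN24, too few to be tested.

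The remaining protocadherins were low in EPN24-Cas13d. PCDH15, the partner of CDH23 in the tip link, had no count in either EPN24-Cas13d library, against 8.92 and 20.8 CPM in EPN24. It was at least 39.8-fold lower with TMM scaling (edgeR adjusted p = 2.1e-05) and at least 3.86-fold lower on the ERCC scale, where it was also called (edgeR adjusted p = 0.0087). PCDH12, a protocadherin of endothelium, had 0.962 and 0 CPM in EPN24-Cas13d, against 12.9 and 4.73 CPM in EPN24, with a log2 fold change of -4.07 (edgeR adjusted p = 0.0016) that was not called with ERCC scaling (-0.86). Without EPN24-Cas13d replicate 2 the value of PCDH12 was -3.08, and without replicate 1 no count of it remained in that group. PCDH20 had 1 count in EPN24-Cas13d and 7 in EPN24 and was not tested. Of its exon length, 95.8% overlaps ENSG00000197991 on the same strand, so its reads cannot be assigned.

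**Figure D2:**
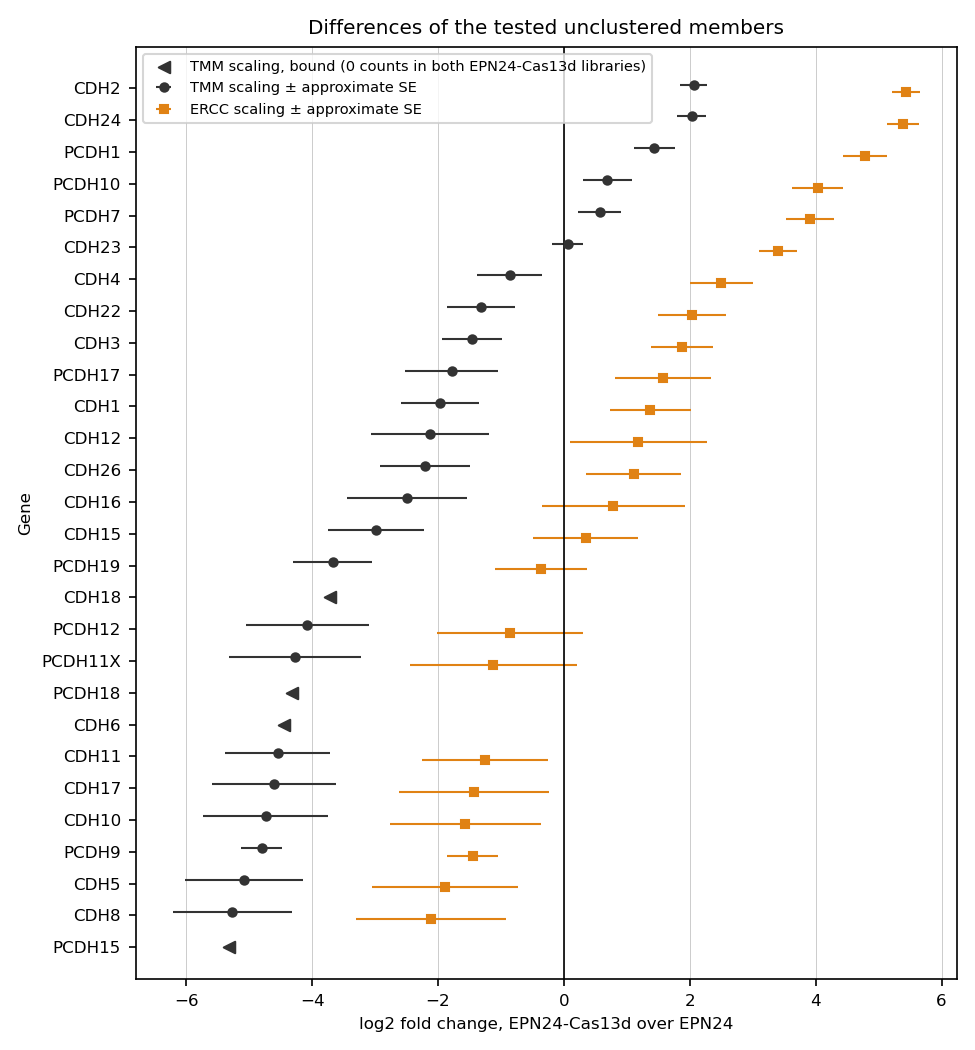
log2 fold change of EPN24-Cas13d over EPN24 for the 28 tested unclustered members, with TMM scaling (black circles) and with ERCC scaling (orange squares), bars giving the approximate SE. Triangles are bounds for the 4 genes with 0 counts in both EPN24-Cas13d libraries, on the TMM scale. CDH2, CDH24 and PCDH1 lie above 0 on both scales and PCDH9 lies below 0 on both.

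Of the 21 lower calls, 10 held when each of the 4 libraries was left out in turn, and 5 more held in each such fit that still tested the gene. The other 6, CDH3, CDH12, CDH16, CDH22, CDH26 and PCDH17, were not called in at least 1 of these fits. PCDH17 lost its call without EPN24-Cas13d replicate 1, without EPN24-Cas13d replicate 2 or without EPN24 replicate 2, with an edgeR adjusted p of up to 0.42. CDH16 lost its call without EPN24-Cas13d replicate 1 or EPN24 replicate 2 (edgeR adjusted p up to 0.30), CDH12 without either EPN24 library (up to 0.30; it was not tested without either EPN24-Cas13d library), and CDH26 without EPN24-Cas13d replicate 2 (0.087). The 3 higher calls held in all 4. Under ERCC scaling the 4 lower members were PCDH9, PCDH15, PCDH18 and CDH6, and 3 of these had no count in EPN24-Cas13d.

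Set per kb of exon, a few members stood far above the rest in EPN24-Cas13d. Mean levels ran from 0 to 16.8 CPM per kb in EPN24-Cas13d, against 0.212 to 4.10 CPM per kb in EPN24. As a yardstick, 361 olfactory receptor genes, which are known mainly from the nose, held 0.179 and 0.141 counts per kb in EPN24-Cas13d and 1.85 and 1.44 counts per kb in EPN24. CDH24 lay 392 and 470 times above this density in EPN24-Cas13d, against 5.21 and 5.75 times in EPN24. For CDH2 the density ratios were 257 and 302 in EPN24-Cas13d, against 2.59 and 4.49 in EPN24. For PCDH1 they were 121 and 155 in EPN24-Cas13d, against 3.11 and 1.99 in EPN24. The 3 higher members lay far above the olfactory receptor density in EPN24-Cas13d and at no more than 5.75 times it in EPN24. CDH23 followed at 48.1 and 57.5 times in EPN24-Cas13d, against 2.94 and 2.21 times in EPN24. PCDH7 lay at 34.6 and 45.6 times in EPN24-Cas13d, against 1.64 and 1.08 times in EPN24, and PCDH10 at 28.5 and 51.5 times in EPN24-Cas13d, against 1.38 and 1.09 times in EPN24. These 3 genes were not called with TMM scaling and all 4 libraries under the usual filter, and their calls under other settings are given above.

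In the EPN24 libraries 33 of the 35 unclustered members, and 86 of all 88, averaged at most 3 times the olfactory receptor density, and CDH2 and CDH24 were the exceptions. All 21 lower members were among the 33. Among all tested genes the share within 3 times was 49.8%. Each lower call was thus made against an EPN24 level close to that of olfactory receptor genes, and the part of that density in the calls was not tested. Subtracting the density from each library left 17 members with enough counts, of which CDH2 and CDH24 were higher and 9 lower, against 33.9% higher and 36.7% lower among all genes tested that way. With a stricter filter 2 of 12 members were higher and 7 lower (40.7% and 41.7% of all tested genes), and with DESeq2 3 of 28 were higher and 16 lower (28.6% and 39.5%). Across the 35 members, exon length and counts had a Pearson correlation of 0.018 and 0.022 in the EPN24-Cas13d libraries, against 0.757 and 0.770 in the EPN24 libraries. The Spearman correlation was 0.041 and 0.045 in the EPN24-Cas13d libraries, against 0.424 and 0.373 in the EPN24 libraries. Without the 3 higher members the Pearson correlation was 0.338 and 0.330 in the EPN24-Cas13d libraries, against 0.800 and 0.817 in the EPN24 libraries. These are descriptions across genes, which share a library and are not replicates. PCDH9, the longest member, weighs on them.

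**Figure D3:**
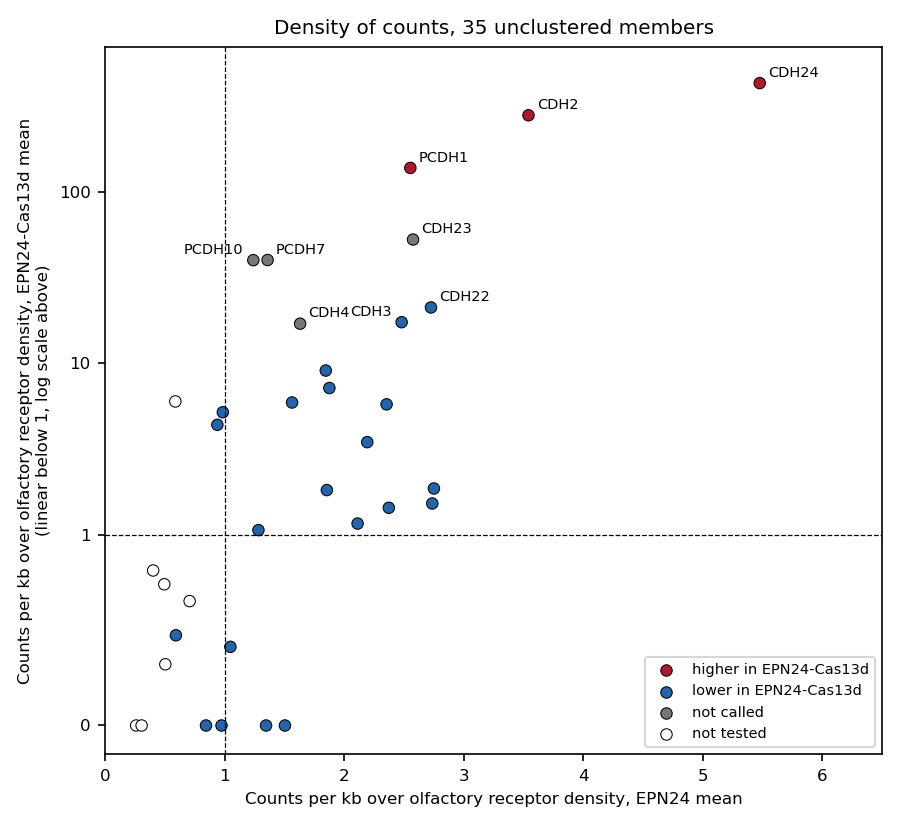
Mean counts per kb of the 35 unclustered members as a multiple of the olfactory receptor density, EPN24-Cas13d on the vertical axis (linear below 1, logarithmic above) and EPN24 on the horizontal axis. Colours give the edgeR call and dashed lines mark the olfactory receptor density. Members spread from 0 to above 100 times in EPN24-Cas13d, while 33 of 35 lie at or under 3 times in EPN24.

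Levels between genes were compared as CPM per kb of exon. In EPN24-Cas13d, CDH24 was first at 16.8 CPM per kb, CDH2 next at 10.9 and PCDH1 after it at 5.36. CDH23 at 2.06, PCDH7 at 1.55 and PCDH10 at 1.53 CPM per kb came next, and no other member passed 1. In EPN24 the order began with CDH24 at 4.10 and CDH2 at 2.60 CPM per kb, followed by a group with little between its members, CDH10 at 2.06, PCDH9 at 2.03, CDH22 at 2.01, CDH23 at 1.96 and PCDH1 at 1.96.

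As a family, the unclustered members took a smaller share of gene counts in EPN24-Cas13d but were more abundant per ERCC count. Their share of gene counts was 0.0238 ± 0.000697% in EPN24-Cas13d and 0.0433 ± 0.00541% in EPN24 (SD, n = 2 each), a ratio of 0.549. Per 1000 ERCC counts they held 13.8 ± 0.804 counts in EPN24-Cas13d and 1.72 ± 0.314 counts in EPN24 (SD, n = 2 each), a ratio of 8.04. CDH2 by itself held 4.44 ± 0.0369 counts per 1000 ERCC counts in EPN24-Cas13d and 0.101 ± 0.0129 in EPN24 (SD, n = 2 each), a ratio of 43.9. Without CDH2, CDH24 and PCDH1, the other 32 held 4.88 ± 0.587 in EPN24-Cas13d and 1.49 ± 0.283 in EPN24 (SD, n = 2 each), a ratio of 3.27. A two-sided exact permutation test of each measure returned p = 0.333, and 2 against 2 libraries cannot give less.

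The clustered protocadherins carry most members but few reads. The values of a member in PCDHA or PCDHG are largely fractions, and they have the form of reads in the common exons divided evenly over the members, by 15 in PCDHA and by 22 in PCDHG. This division is inferred from the values, since no source used here gives the overlap settings of the counting. In PCDHG the smallest member value was 1.86 and 1.32 counts in EPN24-Cas13d and 0.55 and 0.45 counts in EPN24, which times 22 comes within 0.1 of 41, 29, 12 and 10 whole counts. Values above that smallest were whole for all 22 members within 0.011 counts. In PCDHA they were whole for all 15 members in 3 libraries and for 14 of 15 in EPN24 replicate 2. The first 240 bases of the common ends are shown here, since the result for PCDHG turns on them, with the middle of the 3 common exons in capitals, as annotated by GENCODE 29 on GRCh38. They are spliced from chr5:140978949-141009718 in PCDHA and from chr5:141494807-141511038 in PCDHG, both on the plus strand, and all of them are coding.
PCDHA: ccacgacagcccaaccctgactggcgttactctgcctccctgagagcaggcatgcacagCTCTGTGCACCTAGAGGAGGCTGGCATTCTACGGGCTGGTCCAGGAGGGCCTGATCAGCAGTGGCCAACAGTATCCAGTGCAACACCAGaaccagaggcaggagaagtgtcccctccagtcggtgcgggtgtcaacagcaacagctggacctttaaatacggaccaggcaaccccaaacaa
PCDHG: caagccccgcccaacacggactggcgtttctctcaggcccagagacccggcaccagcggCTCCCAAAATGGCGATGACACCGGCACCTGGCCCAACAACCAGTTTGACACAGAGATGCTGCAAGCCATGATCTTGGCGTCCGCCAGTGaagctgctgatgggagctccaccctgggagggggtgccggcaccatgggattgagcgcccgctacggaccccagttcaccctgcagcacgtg
The exons listed for all 15 and all 22 members in the deposited table cover the whole coding part of the common ends. Together with the noncoding end, the common exons make up 2869 of 72097 bp of PCDHA exons and 2177 of 78179 bp of PCDHG exons, or 2.78% in PCDHG.

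In PCDHG, the common end took a larger part of the counts in EPN24-Cas13d, and the other exons fell in CPM but not per ERCC count. The common exons held 41 and 29 counts in EPN24-Cas13d, against 12 and 10 in EPN24, while the other exons held 20.9 and 21.0 counts in EPN24-Cas13d, against 113 and 86.9 in EPN24. The common end thus took 66.2% (exact 95% interval 53.0 to 77.7%) and 58.0% (43.2 to 71.8%) of the cluster's counts in EPN24-Cas13d, against 9.59% (5.06 to 16.2%) and 10.3% (5.06 to 18.1%) in EPN24. The intervals of the groups do not meet, and a two-sided exact permutation test returned p = 0.333, again its minimum. In CPM the other exons fell, at 5.03 and 5.30 CPM in EPN24-Cas13d and 50.4 and 41.1 CPM in EPN24, with a log2 fold change of -3.14 (edgeR adjusted p = 3.5e-07). The common exons had 9.86 and 7.30 CPM in EPN24-Cas13d and 5.35 and 4.73 CPM in EPN24, a log2 fold change of 0.76 that was not called (edgeR adjusted p = 0.18). Per 1000 ERCC counts, the other exons held 0.234 and 0.256 counts in EPN24-Cas13d, against 0.254 and 0.173 in EPN24, and these groups overlapped. The common exons held 0.458 and 0.353 counts per 1000 ERCC counts in EPN24-Cas13d, against 0.0270 and 0.0199 in EPN24. This division was chosen after the values were seen.

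Per kb, the common end of PCDHG lay 105 and 94.3 times above the olfactory receptor density in EPN24-Cas13d, against 2.99 and 3.19 times in EPN24. The other exons lay 1.54 and 1.96 times above it in EPN24-Cas13d and at 0.807 and 0.795 times in EPN24. In PCDHA the common end held 0 and 2 counts in EPN24-Cas13d, against 3 and 7 in EPN24, too few to compare. The other exons of PCDHA held 6 and 5.95 counts in EPN24-Cas13d, against 68 and 57.5 in EPN24, and fell by 4.26 on the log2 scale (edgeR adjusted p = 5.4e-07).

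**Figure D4:**
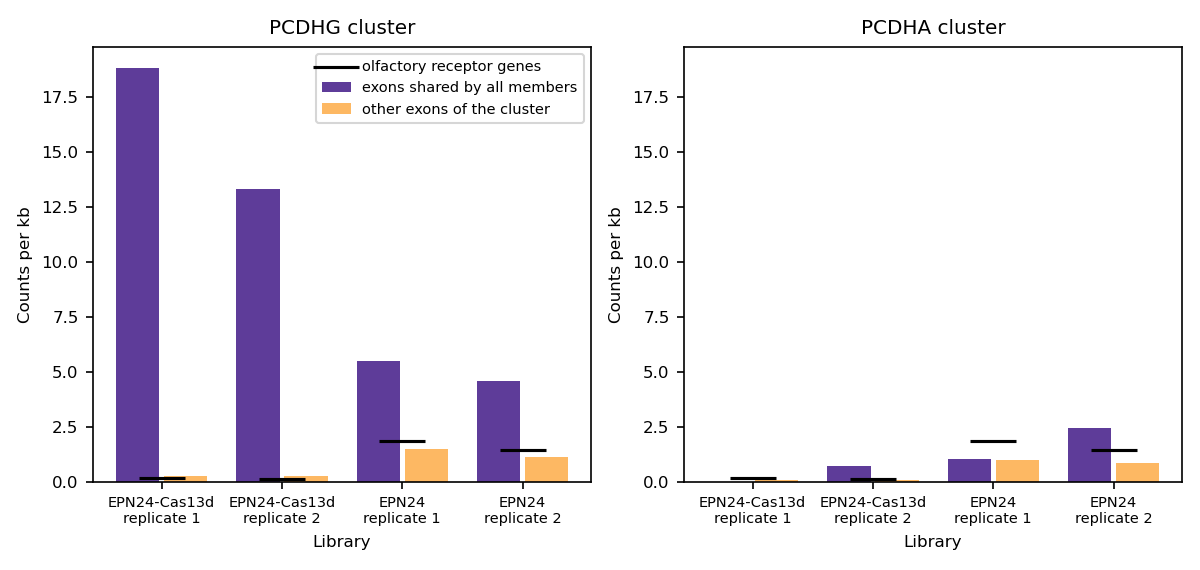
Counts per kb in each library for the exons common to all members (purple) and the other exons (orange) of PCDHG and PCDHA, EPN24-Cas13d libraries on the left of each panel. Black lines mark the olfactory receptor density of each library. The purple bars of PCDHG stand at 18.8 and 13.3 counts per kb in EPN24-Cas13d and at 5.51 and 4.59 in EPN24.

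Summed over each whole cluster, all 3 clusters fell with TMM scaling, while with ERCC scaling PCDHG rose and PCDHB changed sign. PCDHA measured 1.72 ± 0.395 CPM in EPN24-Cas13d and 31.1 ± 0.784 CPM in EPN24 (SD, n = 2 each; log2 fold change -4.15, edgeR adjusted p = 4.4e-07). PCDHB measured 6.23 and 1.89 CPM in EPN24-Cas13d, against 39.9 and 24.1 CPM in EPN24 (log2 fold change -2.94, edgeR adjusted p = 4.8e-05). Its EPN24-Cas13d replicates differ widely, and the change was -3.90 without EPN24-Cas13d replicate 1 and -2.29 without EPN24-Cas13d replicate 2. PCDHG measured 13.7 ± 1.62 CPM in EPN24-Cas13d and 50.8 ± 7.02 CPM in EPN24 (SD, n = 2 each; log2 fold change -1.88, edgeR adjusted p = 1.3e-05). With ERCC scaling the changes were -0.81 for PCDHA, 0.37 for PCDHB, neither of them called, and 1.46 for PCDHG (edgeR adjusted p = 0.0010). Per kb, all 3 sums lay below the olfactory receptor density in both EPN24 libraries. They stood at 0.534 and 0.622 times it for PCDHA, 0.742 and 0.542 for PCDHB and 0.867 and 0.861 for PCDHG. Relative to that density, EPN24-Cas13d over EPN24 gave 1.08 for PCDHA, whose groups overlapped, 2.36 for PCDHB and 5.18 for PCDHG. No sum was lower by this measure, and the part of that density in the TMM falls was not tested.

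Of the 53 clustered members only 6 had enough counts to be tested singly, and edgeR called 5 lower and none higher, beside 48.2% lower and 32.6% higher among all tested genes. At an unadjusted p under 0.05 these numbers were 6 and 0, and DESeq2 called 5 lower and 0 higher. With ERCC scaling edgeR called none in either direction, also at an unadjusted p under 0.05, beside 2.33% lower and 58.4% higher. The filter again favoured members with more CPM in EPN24, and all 6 had both EPN24 values above both EPN24-Cas13d values. The lower calls are thus partly set by which members could be tested. Without the filter 52 were tested, with 0 higher and 9 lower, beside 7326 higher and 11046 lower of all 49197 genes tested that way. PCDHA10 had 0.481 and 0.0327 CPM in EPN24-Cas13d, against 5.44 and 9.69 CPM in EPN24, and PCDHAC1 had 0 and 0.0327 CPM in EPN24-Cas13d, against 6.33 and 3.06 CPM in EPN24. PCDHB5 had 0.161 and 0 CPM in EPN24-Cas13d, against 6.24 and 2.84 CPM in EPN24. An antisense gene, ENSG00000280029, overlaps 14.7% of PCDHB5 and had 21.4 counts over the 4 libraries. The groups of these 3 genes did not overlap, and their EPN24-Cas13d values rest on at most 2.13 counts. In PCDHA10 and PCDHAC1 these include common-end fractions. PCDHB has no exon common to all its members, and the source of the fractions in its values was not examined. In PCDHG, PCDHGA1 and PCDHGC5 were lower at -3.35 and -3.51 on the log2 scale, while PCDHGC4 was not called (-1.94, edgeR adjusted p = 0.052). In EPN24-Cas13d, PCDHGA1 and PCDHGC5 both stood at the smallest member value of the cluster, 1.86 and 1.32 counts. All of these counts have the form of common-end fractions, so neither gene showed a count from its own exons there. PCDHGC4 was called lower with DESeq2 size factors in edgeR (adjusted p = 0.046), with a length trend removed (edgeR adjusted p = 0.034) and with a GC trend removed (edgeR adjusted p = 0.0051). Its value was -3.82 without EPN24-Cas13d replicate 1 and -1.09 without EPN24-Cas13d replicate 2, and it was called in neither fit. The call of PCDHGC5 was lost without EPN24-Cas13d replicate 2 (edgeR adjusted p = 0.072). PCDHB15, untested, was the member of its cluster with the most counts in EPN24-Cas13d, 8.25 and 5.5, against 5 and 6 in EPN24. Of the 16 PCDHB members, 9 had no count in EPN24-Cas13d.

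Members with more GC in their coding sequence had, with exceptions, the larger fold changes. Across the 28 tested unclustered members, coding GC content and log2 fold change had a Pearson correlation of 0.606 and a Spearman correlation of 0.680, while with transcript GC content the same members gave 0.501 and 0.545. Over all tested genes with a transcript in GENCODE 29 (n = 19924) transcript GC content gave 0.457 and 0.467. These describe genes that share libraries and are given without a test. The correlations used fitted log2 fold changes also for CDH6, CDH18, PCDH15 and PCDH18, which had no count in EPN24-Cas13d. The fitted values of these 4 genes, -7.65, -6.92, -8.54 and -7.53, are not estimates of size. Their bounds, which the plot of coding GC content shows, are -4.45, -3.71, -5.32 and -4.32. All 4 have 43.9 to 47.2% coding GC, so the Pearson correlations rest in part on such values. Correlations with the bounds were not computed. CDH24, at 64.2% coding GC, and PCDH1, at 59.3%, lie on the GC-rich side, and CDH6 at 47.2%, PCDH9 at 45.6% and PCDH15 at 43.9% on the other. CDH2 departs from this order with 46.4% coding GC, and with a GC trend removed its log2 fold change was 2.67. CDH22 at 66.2% and CDH15 at 66.1% depart from it the other way, since both are GC-rich and were lower, CDH15 at -5.79 with a GC trend removed. With a GC trend removed 3 members were higher and 21 lower, of which 1 and 18 had the same call without that step. Over all 20476 tested genes, 5483 were then higher and 8830 lower. To show the difference in base composition, the middle 90 coding bases of a GC-rich higher member, CDH24, of a higher member with less GC, CDH2, and of a lower member with no count in EPN24-Cas13d, CDH6, are printed with G and C in capitals. They are bases 1186 to 1275 of the CDH24 coding sequence (chr14:23047983-23055733, minus strand), 1315 to 1404 of CDH2 (chr18:27952156-28177022, minus strand) and 1141 to 1230 of CDH6 (chr5:31267474-31323305, plus strand), on GRCh38 after GENCODE 29. The ranges span all coding exons of each gene.
CDH24: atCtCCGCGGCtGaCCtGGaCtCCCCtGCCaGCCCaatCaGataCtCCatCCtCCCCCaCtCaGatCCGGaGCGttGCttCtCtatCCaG
CDH2: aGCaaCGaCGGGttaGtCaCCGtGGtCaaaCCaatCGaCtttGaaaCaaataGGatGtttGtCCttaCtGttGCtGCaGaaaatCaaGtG
CDH6: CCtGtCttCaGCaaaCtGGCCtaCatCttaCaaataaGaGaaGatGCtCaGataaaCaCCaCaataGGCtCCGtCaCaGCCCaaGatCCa
G and C make up 60.0% of the CDH24 stretch, 43.3% of the CDH2 stretch and 45.6% of the CDH6 stretch. CDH2 and CDH6 are thus alike in composition here and differ in direction.

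**Figure D5:**
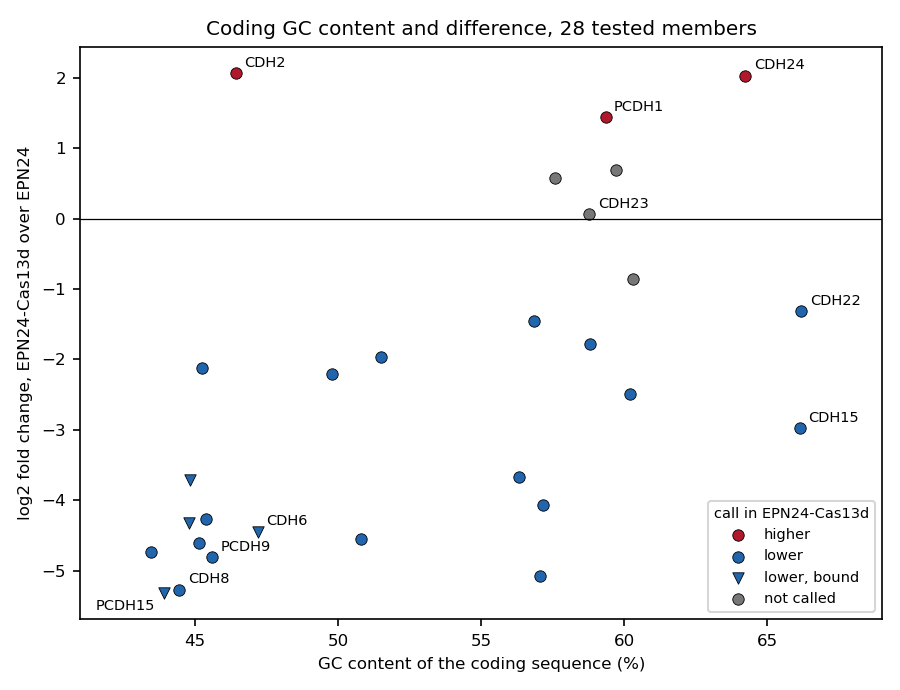
Coding GC content (%) against log2 fold change of EPN24-Cas13d over EPN24 (TMM scaling) for the 28 tested unclustered members, coloured by edgeR call. Triangles are the 4 genes at their bound. CDH2 at 46.4% GC stands above the other members of its GC range, and CDH15 and CDH22 above 66% GC are among the lower ones.

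Genes that work with cadherins went both ways. Over 10 lists with 109 genes, 108 were tested, with 47 higher, 43 lower and 18 not called, beside 32.6% higher and 48.2% lower among all tested genes, and a median log2 fold change of 0.12 against -0.96 for all tested genes. With ERCC scaling 78 were higher and 3 lower, beside 58.4% and 2.33%. In EPN24, 42 of the 109 lay within 3 times the olfactory receptor density, against 33 of the 35 unclustered members, and a difference between these lists and the members was not tested. Of the 14 catenins and actin linkers, 10 rose and 4 fell. ARVCF, a catenin of the p120 family, had 272 and 270 CPM in EPN24-Cas13d, against 26.8 and 19.4 CPM in EPN24, and CTNNA1, alpha-E-catenin, rose by 3.24 on the log2 scale. Of the 18 large and atypical cadherins, 9 rose, 6 fell and 3 were not called. CLSTN1, calsyntenin 1, with 403 and 407 CPM in EPN24-Cas13d and 22.7 and 23.7 CPM in EPN24, had a log2 fold change of 4.12, and CELSR3, a seven-pass cadherin, one of 2.78.

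Desmosomal cadherins were nearer to the members: of 7, 6 were tested, with 1 higher, 4 lower and 1 not called. DSG2, the widespread desmoglein, measured 75.5 and 67.2 CPM in EPN24-Cas13d, against 25.4 and 30.5 CPM in EPN24, and was called higher (edgeR adjusted p = 4.9e-05). DSG1, the desmoglein of skin, had no count in EPN24-Cas13d and 9.81 and 8.52 CPM in EPN24, at least 24.9-fold lower. Of 8 desmosome plaque genes, 2 rose, the plakin DSP by 2.26 and the plakophilin PKP2 by 3.09 on the log2 scale, 4 fell and 2 were not called. Of 9 nectins and nectin-like genes, 4 rose, 3 fell and 2 were not called, and PVR at 5.08 and NECTIN2 at 3.90 had the smallest p.

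Among 12 genes of cadherin shedding and cleavage, 5 rose, 4 fell and 3 were not called, and the 4 became 2 when either EPN24-Cas13d library was left out. FURIN, which cuts cadherin precursors, rose by 4.76 and the calpain CAPN1 by 3.01 on the log2 scale. Among 11 genes of cadherin turnover, 6 rose, 3 fell and 2 were not called, with SRC at 4.24 and PTPRF at 3.33. Of 8 transcriptional repressors of cadherins, 1 rose, TCF3 at 3.96, 4 fell and 3 were not called. ZEB1, a repressor of CDH1, had 1.68 and 1.76 CPM in EPN24-Cas13d, against 51.3 and 89.9 CPM in EPN24, a log2 fold change of -5.32. Of 11 regulators of clustered protocadherins, 4 rose and 7 fell. The cohesin subunits went opposite ways, SMC1A at 1.53 and RAD21 at -4.56, though with ERCC scaling RAD21 was lower by less, at -1.22, and 9 of the 11 were higher. Of 11 genes of the WAVE complex and linked kinases, 5 rose, 4 fell and 2 were not called, with WASF2 at 4.77 and CYFIP2 at 2.91. All of these log2 fold changes passed edgeR's test with TMM scaling, and all but those of DSG1, RAD21 and ZEB1 were positive with ERCC scaling too.

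In the authors' deposited table, 30.5% of 39794 genes with an adjusted p-value were higher and 0.201% lower. Of the 35 unclustered members, 8 were higher there and 2 lower, and of the clustered members none was called, with 1 higher and 0 lower at an unadjusted p under 0.05. The log2 fold change of CDH2 in the authors' deposited table was 5.42, that of CDH24 5.36 and that of PCDH1 4.73. Lower in the authors' deposited table were PCDH9 at -1.49 and PCDH15 at -4.96. These values lie closer to those with ERCC scaling than to those with TMM scaling.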

How the data were processed

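Total RNA of HEK293T culture supernatant was sequenced from 4 libraries, 2 per group, grouped by the sample titles. Per the labels' protocols, ERCC RNA was added to 200 µl of cleared supernatant ahead of extraction, and amplification took 17 PCR cycles before reading 150-nt pairs. Per the submitters' processing notes, STAR 2.7.10a, featureCounts 2.0.1 and DESeq2 1.36.0 were used with GRCh38. What strand setting and annotation release served is not given in the sources used here.

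Deposited by the authors were expected counts per gene with fractions, not normalized. Between 7.83% and 9.20% of a library's values had a fraction. The exon length (other unit) came with these deposited counts. The authors' deposited DESeq2 table holds a mean normalized count (signal), log2 fold changes with standard errors, a Wald statistic (score) and p-values. Of 61640 rows of counts, 5 broken ones were left out.

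Counts were rounded and tested across all genes in R 4.3.3 with edgeR 4.0.16 (filterByExpr, TMM without ERCC rows, robust quasi-likelihood, Benjamini-Hochberg threshold 0.05). The test was checked on simulated data. As approximate SE the size of the log2 fold change over the square root of F was used. Cluster sums replaced their members' rows by 1 row. GC content, coding sequences and their coordinates come from GENCODE 29 on GRCh38, in which all 88 members were found by gene ID at an overlapping span. Counting intervals are exact (Clopper-Pearson, 95%), and single values were tested by exact permutation in SciPy 1.17.1.

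The members, the 10 lists of partner genes, the alternatives and the tests were chosen with earlier results of these data known. Named genes were the unclustered members past the threshold with a mean of at least 5 CPM, the 3 largest and 3 most negative changes, the 2 most abundant members of each cluster, and the 2 with the smallest p in each list of partner genes. Other members are named because each is accounted for, and were chosen with their values seen. The 14 alternative fits were DESeq2 size factors, ERCC totals, no filter, a stricter filter (at least 10 counts and 10 CPM in 2 libraries), the DESeq2 1.42.0 Wald test, a replicate block, each of 4 libraries left out, halved counts, a length or GC trend removed, and the olfactory receptor density subtracted.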

Additional observations from a re-analysis of the deposited data

How the results depend on the processing

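Scaling to ERCC totals changed the sign of 9 of the 28 tested unclustered members and kept it for 19, and 2 members called lower became higher. With ERCC totals 9 unclustered members were higher and 4 lower, no clustered member was lower, and 78 genes of the partner lists were higher and 3 lower. The PCDHA sum then measured -0.81 (edgeR adjusted p = 0.18), PCDHB 0.37, PCDHG 1.46, CDH3 1.88, CDH22 2.04, CDH1 1.37 and PCDHGC4 1.33 on the log2 scale. Without a filter 5 of 35 unclustered members were higher and 17 lower, and of 52 clustered ones 0 were higher and 9 lower. Over all 49197 genes tested that way, 7326 were higher and 11046 lower. The stricter filter tested 12 unclustered members, 7 of them lower, and no clustered one, so 0 were lower. Halved counts left 1 clustered member, which was lower, beside 5859 higher and 6970 lower of all 15289 genes tested that way. Subtracting the olfactory receptor density left 17 unclustered members, 9 of them lower, and 0 clustered ones. The PCDHA and PCDHB sums could then not be tested. The PCDHG sum lay at 0.867 and 0.861 times that density in EPN24, so the subtraction left it no count there. Its log2 fold change of 7.80 in that fit is therefore not an estimate of size. With a length trend removed the PCDHG sum was -0.42 (edgeR adjusted p = 0.14). Counting only the common exons gave 0.76. With a GC trend removed CDH24 was -0.57 and PCDH1 -0.58. With the longest annotated transcript as length, the density of unclustered members over olfactory receptors was 31.5 in EPN24-Cas13d and 2.08 in EPN24, in place of 24.7 and 1.63. The causes were not tested.

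With each library left out, the log2 fold change ranged from 1.68 to 2.28 for CDH2, 1.89 to 2.10 for CDH24 and 0.99 to 1.84 for PCDH1. Among lower members it ranged from -5.09 to -4.55 for PCDH9, -4.89 to -2.92 for PCDH19 and -2.23 to -1.85 for CDH1. The number of members tested changed between these fits, so their numbers of calls are not set beside the main fit here. The cluster sums ranged from -4.33 to -3.86 for PCDHA, -3.90 to -2.29 for PCDHB and -2.09 to -1.70 for PCDHG. Ratios per ERCC count ranged from 7.12 to 9.24 for unclustered members, 0.465 to 0.673 for PCDHA, 0.604 to 1.91 for PCDHB and 2.31 to 3.38 for PCDHG. A fit that leaves 1 library in a group assumes that it varies like the others.

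The replicate numbers are shared between the groups, and the labels do not say whether they pair the libraries. The main fit did not pair them. Deviations of same-numbered libraries had a correlation of -0.0041 over 20476 genes, which with 2 libraries per group cannot settle the question. With the replicate block 3 of 28 tested unclustered members were higher and 17 lower, and 4 of 6 tested clustered members were lower. Over all 20476 tested genes, 6545 were then higher and 8496 lower. The cluster sums with the block were -4.15 for PCDHA, -3.02 for PCDHB and -1.88 for PCDHG.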
